A study of Mus musculus with 3 samples.

Results

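Ribosomal protein genes encode the proteins of the cytosolic ribosome, and the start sites of 51 of them were examined here. The genes were chosen by name. Of the 51, 32 encode proteins of the large subunit (Rpl, including the stalk proteins Rplp0, Rplp1 and Rplp2) and 19 encode proteins of the small subunit (Rps). A start site could be placed on the genome build of the peak lists, mm9, for 44 of the 51, against 15337 other protein-coding genes. A gene was counted as called in a library when a deposited peak touched the window of 1 kb on either side of its start site.

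The data are ATAC-seq peak lists, in which the transposase Tn5 inserts sequencing adapters into accessible DNA. Each library was made from 20000 small-intestinal epithelial cells of E16.5 mouse embryos, isolated by their surface marker EpCAM on beads. The control group held 1 library, with the genotype Hnf4gCrispr/+, so that 1 copy of Hnf4g carried a CRISPR mutation, and its label names neither Cre nor an Hnf4a allele. The double knockout (DKO) group held 2 libraries with the genotype Shh-Cre; Hnf4af/f; Hnf4gCrispr/Crispr, in which both copies of Hnf4g were mutant and the floxed Hnf4a alleles were open to deletion by a Cre recombinase driven from the Shh locus, active in the embryonic gut epithelium. Whether a library came from a single embryo or from pooled embryos is not given in the sources used here. The mutant Hnf4g allele was thus present in all 3 libraries.

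The ribosome is built from rRNA and a fixed set of proteins that are needed in nearly equal amounts. Their promoters are regarded as constitutive: compact, rich in CpG, usually without a TATA box, and active in proliferating tissue such as the fetal gut epithelium. The transcripts begin with a tract of C and T, the terminal oligopyrimidine (TOP) tract, through which the mTOR pathway controls their translation. HNF4A and HNF4G are nuclear receptors that activate enterocyte genes and are not known as dedicated regulators of ribosomal protein genes.

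The control list held 16977 peaks, that of DKO replicate 1 18268 and that of DKO replicate 2 26648, each peak a window of the same width with a score. Sequencing depth is unknown, so the lack of a peak means that none was called and not that the site was closed. With bulk libraries, fewer cells with an open site and less accessibility per cell cannot be told apart. Of 12 placed epithelial marker genes, 7, 9 and 9 had a start-site peak in the control, DKO replicate 1 and DKO replicate 2. Epcam, Cdh1, Krt19, Cdx2, Cldn3, Elf3 and Klf5 were called in all 3. Cldn7 was called in both DKO libraries, Krt8 in DKO replicate 1 and Lgals4 in DKO replicate 2. Krt18 and Muc13 had no peak in any library. Of 11 mesenchymal markers, 0, 2 and 2 were called (Acta2, Col1a1 and Vim, each in 1 or both DKO libraries), and none of the 7 endothelial markers was called. Of 9 blood markers 1 was called in each library, a different one each time. Of 9 neural markers, 2, 4 and 4 were called, with Syt1 in all 3 libraries and Elavl4 and Snap25 in both DKO libraries. Ptprc, Pdgfra, Pecam1, Tubb3 and Sox10 were without a peak throughout.

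Promoters of some ribosomal protein genes, picked by the presence and rank of their peaks, are shown first. Sequences are from RefSeq on GRCm38.p6, a later build than that of the peaks, and run from 150 bases before the annotated start to 20 bases after its first base, that base included. Where a gene had several annotated starts, the one nearest its peak is shown. The table held 41 of the 51 genes. It held no entry for Rplp1, Rpl3, Rpl7, Rpl8, Rpl17, Rpl30, Rpl32, Rps14, Rps20 and Rps27a. Capitals mark matches to the motifs listed further on and any run of 8 or more C and T bases that overlaps the 5 bases on either side of the start.

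The 3 members with the highest mean peak rank were Rpl37 (chr15:5116463-5116632, plus strand), Rps19 (chr7:24884442-24884611, plus strand) and Rpl13a (chr7:45128726-45128895, minus strand).
Rpl37: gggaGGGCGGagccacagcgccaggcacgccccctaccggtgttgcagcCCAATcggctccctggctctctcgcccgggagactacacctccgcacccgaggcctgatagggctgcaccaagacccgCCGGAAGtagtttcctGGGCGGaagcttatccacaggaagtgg
Rps19: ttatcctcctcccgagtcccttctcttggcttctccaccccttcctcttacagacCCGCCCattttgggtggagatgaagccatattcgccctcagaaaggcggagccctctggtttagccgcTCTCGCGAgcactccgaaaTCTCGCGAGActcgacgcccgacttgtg
Rpl13a: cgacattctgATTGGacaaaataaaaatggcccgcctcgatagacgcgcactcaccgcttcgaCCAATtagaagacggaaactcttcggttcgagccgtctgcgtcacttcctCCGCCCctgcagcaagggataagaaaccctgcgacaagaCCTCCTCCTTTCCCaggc

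Of the 3 members with the lowest mean rank among those called in every library, Rpl23 (chr11:97782420-97782589, minus strand) and Rpl9 (chr5:65391412-65391581, minus strand) had an entry, and Rpl32 was the third.
Rpl23: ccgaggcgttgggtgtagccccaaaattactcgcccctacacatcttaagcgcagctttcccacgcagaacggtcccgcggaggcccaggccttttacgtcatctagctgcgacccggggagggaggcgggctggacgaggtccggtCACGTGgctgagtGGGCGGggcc
Rpl9: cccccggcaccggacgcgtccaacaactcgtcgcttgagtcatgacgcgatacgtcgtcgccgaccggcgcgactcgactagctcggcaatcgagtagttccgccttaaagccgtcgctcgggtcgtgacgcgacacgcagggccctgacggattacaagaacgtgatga

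Rpsa (chr9:120127616-120127785, plus strand), Rpl28 (chr7:4792815-4792984, plus strand) and Rps13 (chr7:116334171-116334340, minus strand), picked after their values were seen, had the highest DKO ranks among the members without a control peak.
Rpsa: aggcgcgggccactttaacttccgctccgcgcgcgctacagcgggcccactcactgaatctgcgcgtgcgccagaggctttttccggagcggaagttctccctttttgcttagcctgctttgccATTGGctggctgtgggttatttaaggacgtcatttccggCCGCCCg
Rpl28: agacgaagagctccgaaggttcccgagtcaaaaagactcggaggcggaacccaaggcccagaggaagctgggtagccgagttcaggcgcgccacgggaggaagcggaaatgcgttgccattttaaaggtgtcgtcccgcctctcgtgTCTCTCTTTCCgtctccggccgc
Rps13: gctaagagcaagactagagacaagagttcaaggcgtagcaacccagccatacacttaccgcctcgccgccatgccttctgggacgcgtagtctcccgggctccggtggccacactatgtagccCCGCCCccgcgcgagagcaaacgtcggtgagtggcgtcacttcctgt

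Rpl15 (chr14:18270967-18271136, minus strand), Rpl18 (chr7:45717921-45718090, plus strand) and Rpl35 (chr2:39005112-39005281, minus strand) had no peak in any library, and all carry a long pyrimidine tract at the start. They too were picked after their values were seen. Of all 15 placed members with such a tract of 8 or more bases, DKO replicate 1 called 12 and DKO replicate 2 called 11, and these 3 had no peak. Of the 24 with a shorter tract, DKO replicates 1 and 2 called 23 and 24, and none was without a peak in every library. Of other protein-coding genes they called 49.9% and 51.7%. A link of tract and peak was not tested, and the support for the placement of these 3 genes is given further on.
Rpl15: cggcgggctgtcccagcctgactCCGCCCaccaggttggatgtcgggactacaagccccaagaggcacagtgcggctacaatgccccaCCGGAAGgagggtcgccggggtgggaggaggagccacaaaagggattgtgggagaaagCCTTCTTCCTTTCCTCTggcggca
Rpl18: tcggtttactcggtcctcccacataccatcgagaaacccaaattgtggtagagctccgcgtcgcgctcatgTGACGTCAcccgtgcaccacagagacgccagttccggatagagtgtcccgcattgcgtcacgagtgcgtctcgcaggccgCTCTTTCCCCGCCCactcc
Rpl35: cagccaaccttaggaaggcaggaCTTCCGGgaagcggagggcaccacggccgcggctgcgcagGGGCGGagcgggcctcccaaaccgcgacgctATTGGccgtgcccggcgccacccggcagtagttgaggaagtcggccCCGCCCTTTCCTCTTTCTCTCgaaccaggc

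A peak was called at the start site of most ribosomal protein genes in both DKO libraries and of fewer in the control. The control called 25 of the 44 placed genes, or 56.8% (Wilson 95% interval 42.2 to 70.3%), beside 43.6% of the other protein-coding genes. DKO replicate 1 called 39, or 88.6% (upper limit 95%, lower limit 76.0%), beside 49.9% of the other genes. DKO replicate 2 called 39 as well, beside 51.7%. The share of ribosomal protein genes called was therefore above that of all genes in each library, and the interval of the control lay below those of both DKO libraries. All 3 libraries called 24 of the 44 genes, or 54.5% (40.1 to 68.3%), beside 39.6% of the other genes. The intervals cover counting error over genes and not the variation between embryos. With 1 control library no test of genotype was made, since a permutation of 3 labels cannot give a p-value below 0.333.

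**Figure D1:**
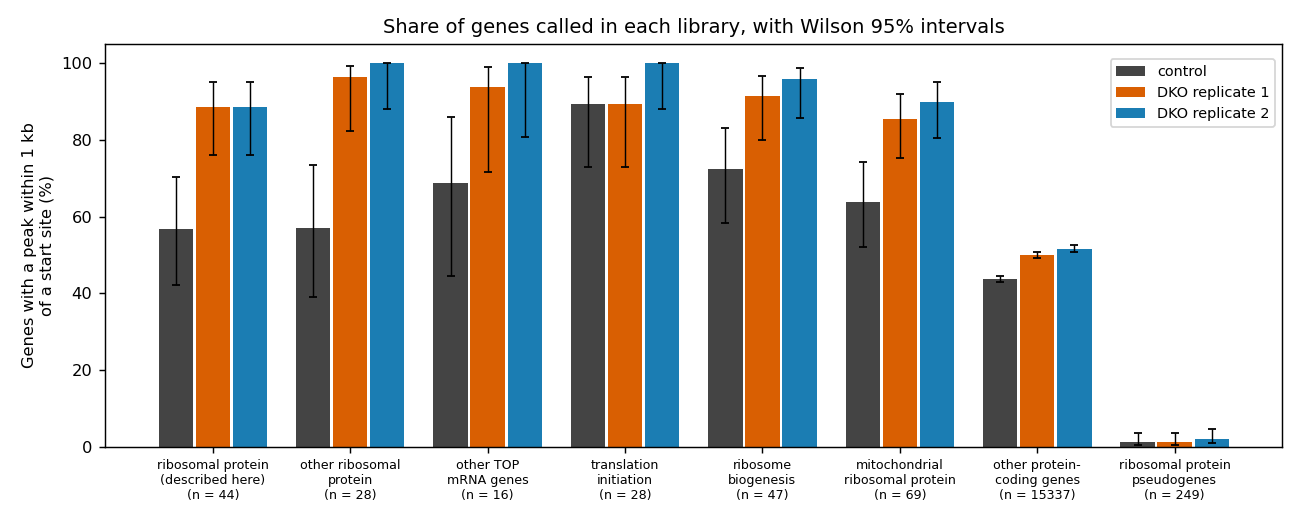
Bars give the share of genes (y axis, percent) with a peak within 1 kb of a start site for each gene list (x axis, n placed genes), coloured by library, with Wilson 95% intervals as error bars. The ribosomal protein genes stood at 56.8% in the control and 88.6% in each DKO library, and their pseudogenes at or below 2.01% in each library.

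The peaks lay close to the start sites as placed. The placement, described below, put most neighbouring start sites, members left out, within 300 bp of a peak centre. For other genes as a set, closeness to the start was thus partly fixed by the placement. Members had no part in it, but their distances carry the error of the offset. For the 39 members placed by a start site, the median peak centre lay 45 bp upstream in the control (22 peaks, from -255 to 226 bp, with upstream negative). It lay 3 bp upstream in DKO replicate 1 and 23 bp upstream in DKO replicate 2 (35 peaks each). The window of the peak covered the start site itself in 22 of 22, 31 of 35 and 34 of 35 cases, against 84.5%, 87.1% and 86.3% for the peaks of other genes. No member had more than 1 peak within 1 kb in any library. Rpl38, whose protein is required for the translation of certain Hox transcripts in the embryo, had the most displaced peaks, centred 530 and 622 bp downstream of its start in the DKO libraries.

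By bins of 500 bp, in the control, 30.8% of the 39 members had a peak centre in the 500 bp before the start and 23.1% in the 500 bp after it, against 22.8% and 14.7% of other genes. The values were 43.6% and 38.5% in DKO replicate 1 and 51.3% and 33.3% in DKO replicate 2, against 27.3% and 16.1%, and 26.3% and 18.5%, of other genes. At the same gene, the centres of the peaks of different libraries lay close together: the median distance was 57.0 bp between the control and DKO replicate 1, 64.5 bp between the control and DKO replicate 2, and 58.0 bp between the DKO libraries. For other genes these medians were 75.0, 77.0 and 66.0 bp.

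**Figure D2:**
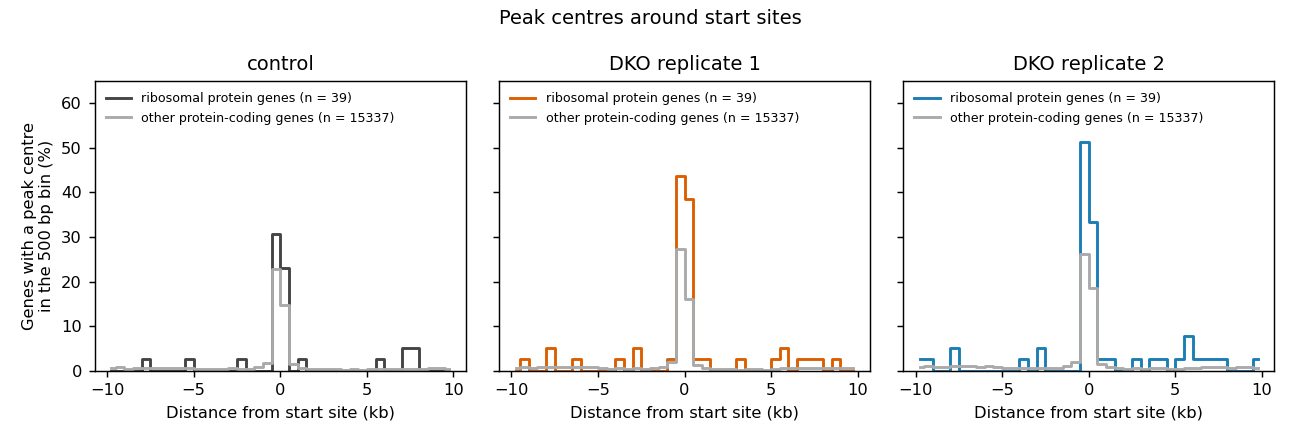
Each panel gives, for 1 library, the percentage of genes (y axis) with a peak centre in bins of 500 bp by distance from the start site in kb (x axis, downstream positive), for the 39 ribosomal protein genes placed by a start site (coloured line) and 15337 other protein-coding genes (grey line). In every library both lines peak in the bins next to the start site, where the placement sought peaks of other genes. The coloured line reached 51.3% in DKO replicate 2 against 30.8% in the control.

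The members called in only some libraries went mainly in 1 direction. In both DKO libraries but not in the control, 14 of the 44 genes were called, beside 7.15% of the other protein-coding genes. No member was called in the control alone. Among the 38 members with peaks in both knockouts, 36.8% (23.4 to 52.7%) had none in the control, beside 15.3% of the 7167 other genes called in both. In the reverse comparisons, 0 of the 24 members called in the control and DKO replicate 2 lacked a peak in DKO replicate 1, and 1 of the 25 called in the control and DKO replicate 1 lacked it in DKO replicate 2. For other genes those shares were 4.05% and 2.11%. The control library was thus the one that most often lacked a shared promoter, for these genes and for all genes, and more often for these genes. The mesenchymal and neural markers given above were also called more often in the DKO libraries. So were the epithelial markers (7, 9 and 9 of 12) and the other protein-coding genes (43.6%, 49.9% and 51.7%). The part of other cell types in this result was not tested.

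Small subunit genes made up 7 of the 14, although 16 small subunit genes were placed and 28 large subunit genes. Rpsa, which encodes the laminin-receptor homologue of the small subunit, had scores of 45 (percentile rank 87.3) and 41 (86.3) in DKO replicates 1 and 2, in windows at chr9:120036471-120037071 and chr9:120036607-120037207 on mm9. Its nearest control peak was 17240 bp away. The percentile rank is the share of all peaks of the same library with a lower score, with ties counted at their middle, so both Rpsa peaks stood in the upper part of their lists. Rps13 had scores of 48 (89.6) and 25 (60.5), and a control peak lay 2454 bp away, the shortest distance of the 14. Rps3, a protein of the mRNA entry channel, had 33 (72.1) and 32 (75.3). Rps24, 1 of the genes mutated in Diamond-Blackfan anaemia, had 35 (75.6) and 27 (65.4). Its nearest control peak lay 245013 bp away. Rps16 had scores of 35 and 18, Rps15 had 27 and 27, and Rps25 had 24 and 25. These peaks ranked between 35.8 and 75.6.

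The large subunit gave the other 7. Rpl28 had scores of 43 (rank 85.7) and 30 (71.8) in DKO replicates 1 and 2, and Rpl10a had 35 (75.6) and 26 (63.0). Rpl3, a protein at the peptidyl transferase centre, had 28 (61.2) and 32 (75.3), and Rpl7a had 25 (52.6) and 35 (79.8). Each of these ranked above the middle of both DKO lists while no peak was called in the control. Rpl12, Rpl19 and Rpl38 had the lowest ranks of the group, from 35.8 to 49.4. Over the 14 genes the median rank was 66.7 in DKO replicate 1 and 64.2 in DKO replicate 2, below the medians of 74.7 and 72.7 for the 24 members called in all libraries. It was above the 42.4 and 44.1 of the 1097 other genes called in both DKO libraries and not in the control.

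Among all genes the share without a control peak fell as the DKO rank rose, so it was also read at like ranks. Among genes with a mean DKO rank from 50 to 75, 8 of 20 members (40.0%, 21.9 to 61.3%) lacked a control peak, against 303 of 2241 other genes (13.5%, 12.2 to 15.0%). From 75 to 100 the shares were 3 of 13 members (23.1%, 8.18 to 50.3%) and 110 of 3105 other genes (3.54%, 2.95 to 4.25%). From 25 to 50 they were 3 of 5 and 461 of 1380 (33.4%), with an interval for the members that spans the other genes' value. In the upper 2 classes the member interval lay above that of the other genes.

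**Figure D3:**
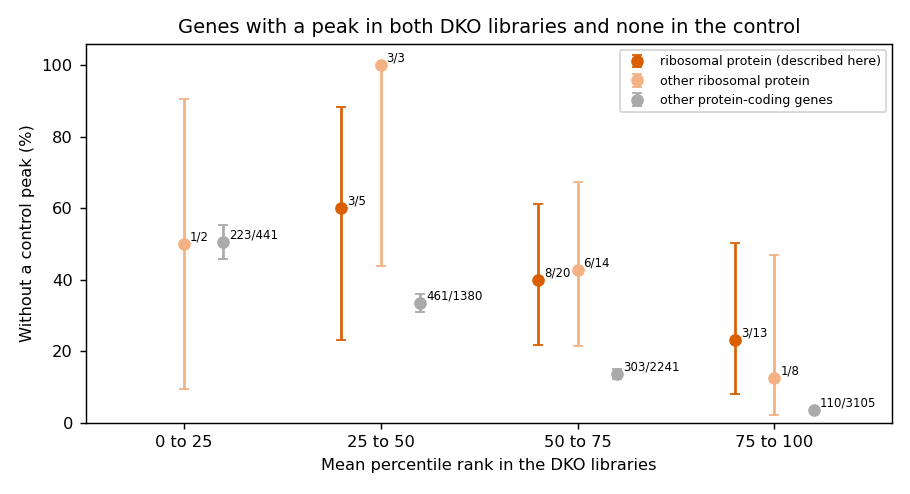
Points give the percentage of genes called in both DKO libraries that had no control peak (y axis) by mean DKO percentile rank (x axis), for the ribosomal protein genes described here, the other ribosomal protein genes and all other protein-coding genes, with Wilson 95% intervals and the counts beside each point. For other genes the share fell from 50.6% in the lowest class to 3.54% in the highest, and the ribosomal protein genes stood at 40.0% and 23.1% in the upper classes.

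The 28 ribosomal protein genes outside the set, a list completed from the known proteins of the ribosome, gave similar counts. All 28 were placed, and 16, 27 and 28 were called in the control, DKO replicate 1 and DKO replicate 2, beside 43.6%, 49.9% and 51.7% of other genes. Of the 27 with peaks in both knockouts, 11 (40.7%, 24.5 to 59.3%) had none in the control. No gene of this list was called in the control and missed in either DKO library.

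Other gene lists of translation were counted in the same way. For translation initiation factors, 25, 25 and 28 of 28 placed genes were called in the control, DKO replicate 1 and DKO replicate 2, and 1 of the 25 with peaks in both knockouts (4.00%) had none in the control. For ribosome biogenesis factors, which process rRNA and assemble the subunits, 10 of 42 (23.8%) lacked it. For mitochondrial ribosomal proteins it was 15 of 57 (26.3%), and for other genes with TOP transcripts, such as elongation factors, 4 of 15 (26.7%). The intervals of the last 3 lists overlap that of the ribosomal protein genes. The upper limit for initiation factors, 19.5%, lies below the lower limit of 23.4% for the members. These limits cover counting error over genes and not the variation between embryos. The called initiation factors also had a higher median rank than the called members in each DKO library. The lists were not compared at like ranks, so the part of rank in this gap was not tested.

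The peaks of the members were of middling to high score, not at the top of the lists. The median rank was 74.2 in the control (25 genes, range 17.0 to 96.6), 73.9 in DKO replicate 1 (39 genes, 34.0 to 98.6) and 71.8 in DKO replicate 2 (39 genes, 25.4 to 99.4). The start-site peaks of other protein-coding genes had medians of 62.3, 68.1 and 69.8. The upper 10% of all peaks held 3 of the 25 member peaks in the control, beside 15.1% of the peaks of other genes, and 4 and 6 of 39 in the DKO libraries, beside 17.6% and 19.4%. Ranked over called genes instead of over peaks, with 1 highest peak per gene, the members' median stood at percentiles 63.7, 58.3 and 52.0 in the control and DKO replicates 1 and 2. The scores themselves ran from 15 to 49 in the control, 20 to 80 in DKO replicate 1 and 16 to 88 in DKO replicate 2.

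The 5 highest members were Rpl37, Rps19, Rpl13a, Rps21 and Rps27a. Rpl37, a zinc-binding protein of the large subunit, had scores of 49 (rank 96.6), 80 (98.6) and 88 (99.4) in the control and DKO replicates 1 and 2, at chr15:5066145-5066745, chr15:5066169-5066769 and chr15:5066269-5066869 on mm9. Rps19, the gene most often mutated in Diamond-Blackfan anaemia, had 43 (94.1), 58 (94.7) and 56 (94.9). Rpl13a, a large subunit protein that can also leave the ribosome to silence inflammatory transcripts, had 39 (91.0), 59 (95.1) and 58 (95.5). All 3 thus ranked in the upper 10% of every list, with the control the lowest each time. Rps21 had scores of 37, 63 and 58. Rps27a, a fusion of ubiquitin with a small subunit protein, had 37, 44 and 54.

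The 5 lowest of the members called everywhere were Rpl23, Rpl32, Rpl9, Rps9 and Rpl13. Rpl23 had scores of 15 (rank 17.0), 24 (49.4) and 19 (40.2) in the control and DKO replicates 1 and 2, at chr11:97643324-97643924 in the control. Rpl32 had 18 (34.8), 24 (49.4) and 24 (57.7). Rpl9 had 19 (40.2), 20 (34.0) and 30 (71.8), so that the DKO libraries lay further apart from each other than from the control. Rpl13 had 22 (54.8), 35 (75.6) and 17 (30.8), the largest difference between the DKO libraries of any member, at 44.8 points.

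**Figure D4:**
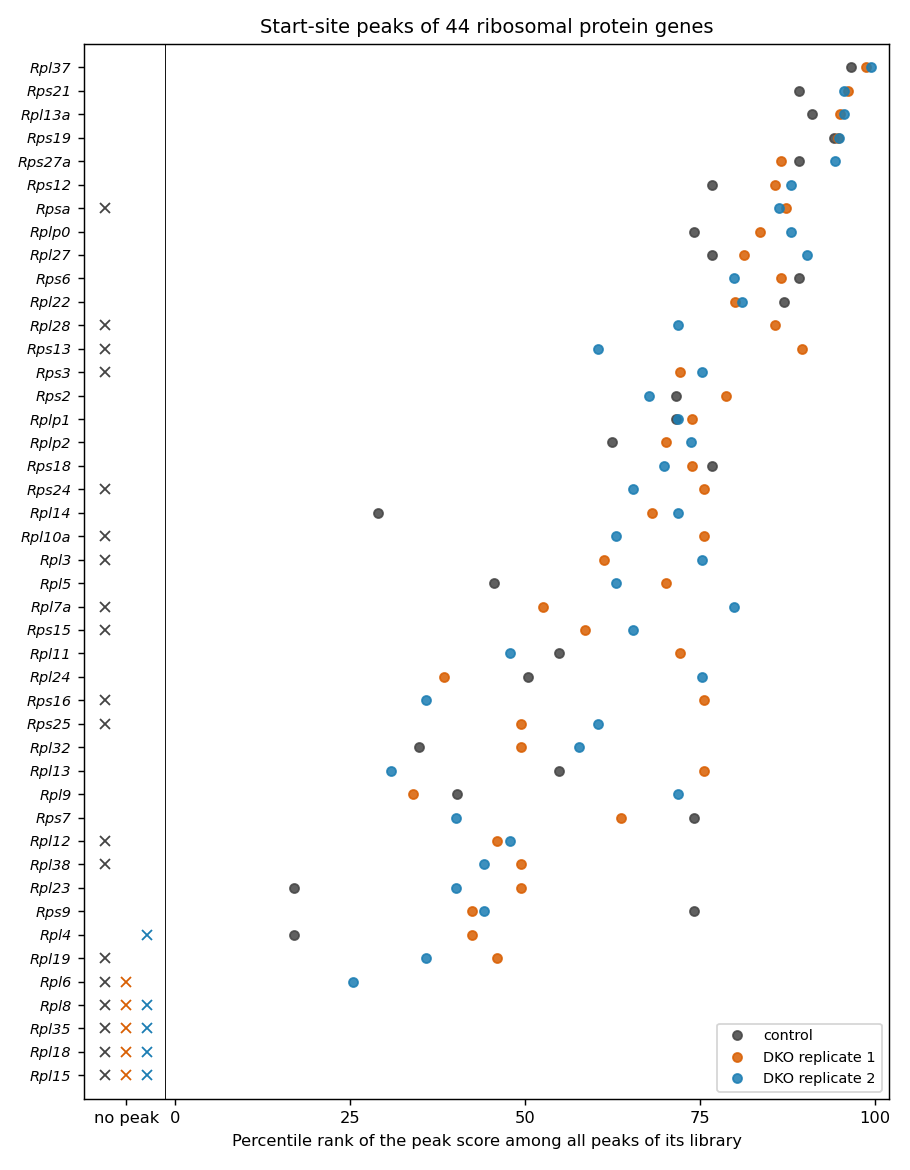
Each row is 1 of the 44 placed ribosomal protein genes, ordered by the mean rank in the DKO libraries, and the x axis is the percentile rank of its start-site peak among all peaks of that library. Circles are coloured by library and crosses at the left stand for no peak. The 14 genes with a cross for the control alone are spread from Rpsa near the top to Rpl19 near the bottom.

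At the 24 members called in all libraries, the control rank was compared with the DKO ranks. The median of the control minus the mean DKO rank was -4.72 points (SD 14.6 over genes), and DKO replicate 1 minus DKO replicate 2 had a median of -0.63 points with an SD of 16.8. These spreads are not on an equal footing, since the first difference uses a mean of 2 libraries. Over the 6070 other genes called in all libraries the median was -5.90 points (SD 18.6), and the SD between the DKO replicates was 16.0. The control ranked below both DKO libraries at 13 of the 24 members, beside 55.7% of other genes, and above both at 5, beside 18.8%. It ranked at least 25 points below both at 1 member (Rpl14), beside 12.1% of other genes, and at least 25 points above both at 1 (Rps9), beside 1.47%. The first 2 counts, 54.2% and 20.8% of the members, stood near those of other genes, and each of the last 2 rests on a single gene.

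The members with the lowest control rank relative to both DKO libraries were Rpl14, Rpl23, Rpl5, Rpl32 and Rplp0. Rpl14 had scores of 17 (rank 28.9), 31 (68.1) and 30 (71.8) in the control and DKO replicates 1 and 2, a difference of -41.0 points from the DKO mean against -3.66 points between the DKO libraries. Rpl5, which binds MDM2 as part of the ribosomal stress response, had 20 (45.5), 32 (70.2) and 26 (63.0), a difference of -21.1. Rplp0, the base of the ribosomal stalk that recruits elongation factors, had 28 (74.2), 41 (83.6) and 43 (88.0), a difference of -11.6. The other stalk proteins, Rplp1 and Rplp2, were also called in every library, with differences of -1.29 and -9.56.

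The control stood above both DKO libraries at Rps9, Rps7, Rpl22, Rps6 and Rps18. Rps9 had scores of 28 (rank 74.2), 22 (42.4) and 20 (44.1), a difference of 30.9 points from the DKO mean against -1.73 between the DKO libraries. Rps7 had 28 (74.2), 29 (63.7) and 19 (40.2), a difference of 22.3 that was smaller than the 23.5 points between the DKO libraries. Rps6, the substrate of the S6 kinases, had 37 (89.2), 44 (86.5) and 35 (79.8), a difference of 6.04. Rpl22 and Rps18 differed by 6.43 and 4.81. Of these 5, 4 encode small subunit proteins, and of the 5 with the lowest relative control rank all encode large subunit proteins. The median difference was -9.12 points for the 15 large subunit genes and -0.64 for the 9 small subunit genes, which describes these members and was not tested. These medians leave out genes without a control peak. With peaks in both DKO libraries, such genes were 7 of the 16 small and 7 of the 28 large subunit genes placed. The 9 small subunit genes kept all ranked at 71.6 or above in the control.

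Across the 24 members, Spearman's rho of the ranks was 0.85 between the control and DKO replicate 1, 0.74 between the control and DKO replicate 2, and 0.76 between the DKO libraries. These are descriptions across genes of the same 3 libraries. Over the 6070 other genes the values were 0.71, 0.74 and 0.81.

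A further 2 placed members were called in only part of the libraries. Rpl4 was called in the control (score 15, rank 17.0) and DKO replicate 1 (22, 42.4) and not in DKO replicate 2, and its peak centres lay at -255 and -512 bp from the start. Rpl6 was called in DKO replicate 2 alone (16, 25.4). Both were weak peaks.

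No peak was called in any library at 4 placed members, Rpl8, Rpl15, Rpl18 and Rpl35, all of the large subunit, whereas all 16 small subunit genes placed were called in both DKO libraries. The nearest peaks to Rpl18 lay 5420, 2751 and 2664 bp from its start in the control and DKO replicates 1 and 2, and to Rpl35 7007, 2889 and 2782 bp. Rpl15 had no peak within 13429 bp. Rpl8 was placed by its gene ends, and its nearest peaks lay 24972, 19132 and 4322 bp away. The offsets of Rpl8, Rpl15, Rpl18 and Rpl35 had 19, 15, 57 and 12 supporting genes, against 9, 9, 12 and 6 for a rival offset. The median support of placed members was 32.5. At Rpl8, Rpl15 and Rpl35, where the margin was narrow, a misplaced start cannot be told from a missing peak. Other protein-coding genes had no peak in any library in 6696 of 15337 cases.

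The 7 members not placed by the main rule were looked up with an offset that counted gene ends too, whatever its support. With gene ends counted, all but Rps23 met the support rule. Rpl7, Rpl30, Rpl34, Rps14 and Rps20 were called in all 3 libraries. Rps20 ranked at 89.2, 94.3 and 93.4 in the control and DKO replicates 1 and 2, Rpl7 at 80.7, 88.1 and 95.8, and Rpl30 at 82.4, 70.2 and 88.0. Rpl34 ranked at 76.6, 88.1 and 90.2. Rps14, a small subunit gene whose loss impairs red cell formation, ranked at 80.7, 70.2 and 79.8. Rpl17 had no peak. Rps23 had none either, but its position is not supported, with 10 genes for its offset and 8 for a rival offset. Over all 51 members, Rps23 included, this gave 30 called in the control and 44 in each DKO library. The same 14 genes were called in both DKO libraries and not in the control.

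The promoter windows of 300 bases (250 before the start and 50 from it) shared features that the choice of genes did not use. The 41 members with a sequence had a median GC content of 59.0% (40.7 to 67.3%), and a ratio of observed to expected CpG with a median of 0.90. The 15337 other placed protein-coding genes had medians of 57.0% and 0.60, and the 7167 of them called in both DKO libraries 62.0% and 0.79. A run of 8 or more C and T bases overlapping the start, as a TOP tract would give, was present in 16 of 41 members (39.0%), against 11.3% of all other genes and 11.3% of those called in both DKO libraries. The longest was the tract of 21 bases at Rpl7a. Since annotated starts can be a few bases off, a tract may be missed.

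Motifs were searched on both strands, and matches may overlap each other or the tract. The ETS core CCGGAAG, bound by factors such as GABPA, was in 16 members (39.0%), against 13.7% of all other placed genes and 22.5% of those called in both DKO libraries. It occurred in Rpl37, Rps21, Rps6, Rpsa, Rps18, Rps2, Rplp2 and Rpl15 among others. The element TCTCGCGA, bound by ZBED1 and ZBTB33, was in 6 members (14.6%), against 1.67% and 3.06%: Rpl10a, Rpl12, Rpl35, Rpl7a, Rps19 and Rps6. In the printed Rps19 window it lies from -27 to -20 and again at -8 to -1, counted from the start as +1 with no 0. The GC box GGGCGG was in 25 members (61.0%), against 51.7% and 73.5%.

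Other motifs were near the shares of other genes or rested on few matches. CCAAT was in 14 members (34.1%), against 42.5% and 45.6%, and the E-box CACGTG in 6 (14.6%), against 9.27% and 12.4%. TATAAA was in 3 (7.32%), against 14.1% and 8.01%. At Rplp0 and Rps2 it lies from 18 to 23, after the start, and Rps2 has a further match from -137 to -132 on the other strand. At Rpl22 it occurs only at the annotated start further from the peak, from -177 to -172 on the other strand. The CRE TGACGTCA was in 3, at Rpl13, Rpl18 and Rps9, and the cores AAGATGGC of YY1 and GCGCATGC of NRF1 were in 2 each. The HNF4 core CAAAGTCCA was in 1 member, Rpl11 (2.44%), against 0.482% of all other genes and 0.307% of those called in both DKO libraries. A match is a description of the letters and not a bound site, and no match is no evidence about the factor.

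**Figure D5:**
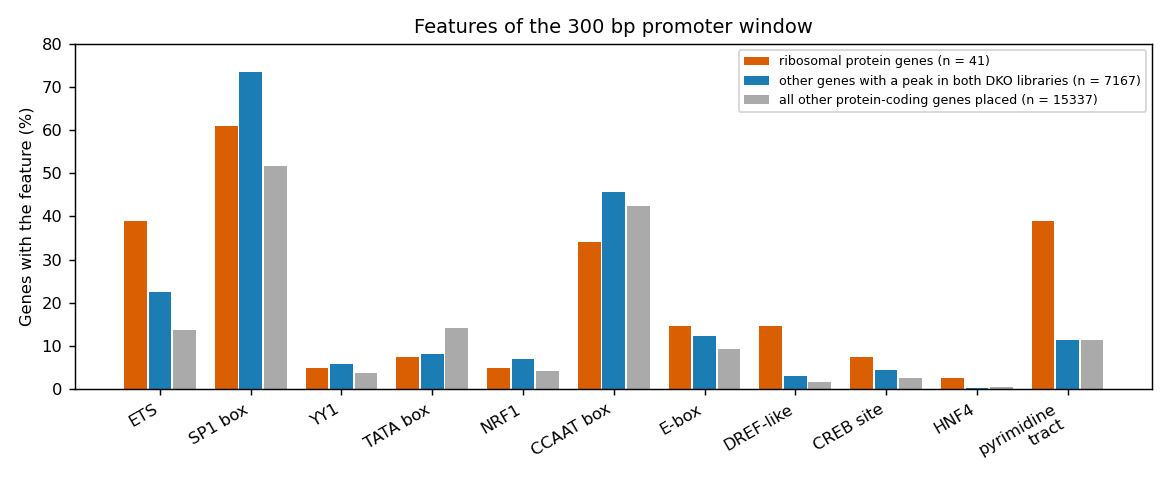
Bars give the percentage of genes (y axis) whose 300 base promoter window holds each motif or the pyrimidine tract (x axis), for 41 ribosomal protein genes, 7167 other genes called in both DKO libraries and all 15337 other placed protein-coding genes. The ETS core, the element TCTCGCGA (plotted as DREF-like) and the tract stood at 39.0%, 14.6% and 39.0% in the ribosomal protein genes, above both other groups.

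The 13 members with a sequence that were called in both DKO libraries and not in the control were set beside the 21 called everywhere. Their median GC content was 59.3% against 57.0% and their median CpG ratio 0.85 against 0.93. The ETS core was in 4 of 13 against 8 of 21, the GC box in 9 of 13 against 11 of 21, and the tract in 5 of 13 against 6 of 21. With groups this small no difference was read from these counts.

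Many ribosomal protein genes also carry small nucleolar RNAs, which guide rRNA modification, in their introns. Of the annotated genes, 21 of the 51 members (41.2%) enclosed 43 snoRNA genes, against 1.61% of other protein-coding genes, although the members were short, with a median length of 3352 bp against 17203 bp. Rpl4 held 5, and Rpl13a and Rpl7a held 4 each. Of the 18 placed hosts, 10 were called in the control and 17 in each DKO library, and of the 26 placed members without a snoRNA, 15 and 22. A start site on the opposite strand within 1 kb upstream was present for 7 of 41 members (17.1%), such as Med22 beside Rpl7a and Vps52 beside Rps18, against 13.9% of other placed genes, and a peak there serves both genes.

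Pseudogenes of ribosomal proteins, most of them copies of transcripts inserted without the promoter, were set beside the genes. Of 249 placed pseudogenes with symbols ending in -ps and a number, 3, 3 and 5 (1.20%, 1.20% and 2.01%) had a peak within 1 kb of either end in the control, DKO replicate 1 and DKO replicate 2, and 242 had none in any library. Rpl21-ps3 alone was called in all 3, with ranks of 80.7, 52.6 and 81.0.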

How the data were processed

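Per the submitters' processing notes, mm9 is the build, and FastQC 0.11.3, Bowtie2 2.2.6, deepTools 2.4.2 and MACS 1.4.1 are named with no role. Reads were single-end, 75 bp. The authors deposited 1 peak list per library, each peak with a position and a score whose meaning is not stated. It has the form of a pileup height, which rises with depth, so it was ranked within its library. Duplicate handling, read shift and thresholds are not given in the sources used here.

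RefSeq genes were at hand on GRCm38.p6 only. For each gene, the start sites of other protein-coding genes within 2.5 Mb, members left out, were shifted together by the offset (within 8 Mb) that put most of them within 300 bp of a peak centre. At least 5 start sites, and 1.5 times as many as for any offset over 5 kb away, had to support it. Placed members had 8 to 87 supporting genes. Of 22208 genes searched, 18421 were placed. Genes without an entry in the promoter table were placed by both gene ends, as were 5 of the 44 members. Coordinates of peaks are 1-based, on mm9. The search was tested on simulated peaks with known offsets and an evenly scattered background (Python 3.11.15, pandas 2.3.3). Such a test does not show that any given member was placed correctly.

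The highest-scoring peak within 1 kb was used. Described by rule were members lacking a peak in a library, the 5 highest and 5 lowest mean ranks, and the 5 largest rank differences each way among members whose control rank lay outside both DKO ranks. The members and lists were chosen with earlier results of these data known.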

Additional observations from a re-analysis of the deposited data

How the results depend on the processing

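No count of members called changed by over 1.5 times at distances of 500 bp or 2 kb or an offset window of 10 Mb. The same held with members used for the offset, no support needed, equal list lengths of 16977 peaks and a score of at least 21. That score did lower the counts, to 19, 38 and 31 members in the control and DKO replicates 1 and 2. Of other genes, 28.9%, 40.1% and 38.8% were then called. Members called in all 3 libraries fell from 24 to 16. At equal lengths 12 members were called in both DKO libraries and not in the control (34.3% of those called in both, against 10.9% of other genes), and at the score threshold 14 (46.7% against 26.3%). Without DKO replicate 1 the count was 15 (38.5% of those called in DKO replicate 2, against 20.2% of other genes). Without DKO replicate 2 it was 14 (35.9% against 18.9%). Counting gene ends too for the offset, added after the data had been seen, left 14 of 43 (32.6% against 15.3%).

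Equal list lengths moved the median member rank to 71.9 and 55.7 in DKO replicates 1 and 2, and the control minus DKO difference to -0.92. Ranking among all peaks within 1 kb of a start site, not over genes, gave 65.9, 61.4 and 55.5 in the control and DKO replicates 1 and 2 and a difference of -2.99, and the score threshold 55.0, 59.0, 51.1 and -8.70. Without each DKO replicate the difference was -4.74 to -4.66. No paired analysis was possible because a lone control library has no numbered partner for each knockout. Depth is unknown, so a site without a peak cannot be told from one just under the threshold, and all comparisons rest on 1 control library.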

Other observations

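Paralogs of ribosomal protein genes did not share 1 pattern. Rpl22l1, the paralog of Rpl22, ranked at 93.5, 88.1 and 94.9 in the control and DKO replicates 1 and 2, and Rpl36al at 82.4, 93.1 and 93.0. Rps27l, a target of p53, ranked at 34.8, 70.2 and 60.5. Rpl3l, which replaces Rpl3 in striated muscle, and Rpl39l, which is expressed in the testis, had no peak in any library.

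Among other genes with TOP transcripts, Gas5, a noncoding host of snoRNAs, ranked at 95.4 and 95.8 in the DKO libraries and had no control peak. It was chosen after its values were seen. Tpt1 ranked at 92.8, 96.6 and 96.1, and Eef1a1, the elongation factor that brings aminoacyl-tRNA to the ribosome, at 88.2, 94.7 and 91.4. Eef2, the translocase, had no control peak and ranked at 68.1 and 57.7 in the DKO libraries.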
